A study of Mus musculus with 20 samples.

Results

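A miRNA hairpin is cut into a duplex of 2 short RNAs, and as a rule one of them, the guide, is loaded into an Argonaute protein while the other, the minor or star strand, is degraded. Older miRNA names mark the minor strand with an asterisk, and a star strand that persists can be loaded in its turn, with a seed of its own and so with other targets. Here 87 star probes of a mouse miRNA array were followed from the crypt to the tip of the villus of the ileum, each beside the same-named probe without asterisk where the array had one. In the crypt lie the dividing cells that renew the epithelium, and the villus is lined by their differentiated progeny. The members are all probes whose array name holds an asterisk, 116 of 655 probes, less 5 single miRNAs, 10 members of miRNA clusters named by their number and 14 probes annotated to chromosome 12, which were not analysed here. A same-named probe was on the array for 76 members, and 11 members had none.

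The tissue was the ileal epithelium of wild type male C57BL/6J mice aged 4 months, with no treatment. A chelating buffer with shaking released the cells step by step, giving V0 (the villus tip) first, then V1, V2, V3 and last C1 (the crypt). Each of the 5 fractions was measured on 4 arrays, 20 in all. The series description names as many mice without linking arrays to them, so p-values measure the spread between arrays and the fractions were compared unpaired. A single ileum gives all 5 fractions, so arrays of different fractions may share a mouse, and the tests treated them as independent. Array numbers 1 to 4 within a fraction are names only.

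The values are the array's fluorescence signal, normalized by the authors so that all arrays share 1 distribution and given here on the log2 scale, on which 1 unit is a doubling. They ran from 8.43 to 15.9 over all probes, so probes near the top had little room to rise. A probe was called detected on an array where its detection p was at most 0.01, which is a test of its signal against the array's negative controls. Levels of different probes are set side by side below but not compared, since probes differ in brightness. In whole fractions, fewer cells of a type and less RNA per cell cannot be told apart.

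The sequences shown here come from RefSeq mature miRNAs (GRCm38.p6), which matched 64 of the 87 members. The first set shows how a star strand and its guide differ in the seed, bases 2 to 8, printed in capitals. In no matched member with a guide sequence did the star seed equal that of its own guide. For miR-34c*, miR-140* and miR-150* no guide sequence was matched, so their seeds were not compared. The guides of let-7b and let-7g share a seed, and their star strands do not.
let-7b* (chromosome 15): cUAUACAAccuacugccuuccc
let-7b, the guide: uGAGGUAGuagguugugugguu
let-7g* (chromosome 9): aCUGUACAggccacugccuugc
let-7g, the guide: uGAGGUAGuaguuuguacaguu
miR-7a* (chromosome 13): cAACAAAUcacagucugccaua
miR-7a, the guide: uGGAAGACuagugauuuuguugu
miR-15b* (chromosome 3): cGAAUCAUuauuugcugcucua
miR-15b, the guide: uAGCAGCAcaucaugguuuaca
miR-22* (chromosome 11): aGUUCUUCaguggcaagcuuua
miR-22, the guide: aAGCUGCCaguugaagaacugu

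The second set shows star strands so alike that a probe for one could bind the other, so that their values are uncertain as values of 1 miRNA. The star strands of miR-30a and miR-30e differed at 1 of 22 bases, those of let-7b and let-7f at 2, and those of miR-17 and miR-20b at 3. Each of these 3 couples shares its seed. The same limit holds for couples not printed here. The star strands of miR-181a-1 and miR-181a-2 differed at 2 of 22 bases. Those of miR-10a and miR-10b differed at 3, as did those of miR-30c-1 and miR-30c-2. The star strands of miR-17 and miR-20a, which lie in 1 cluster and whose guides share a seed, have different seeds. The matched members had 59 distinct star seeds.
miR-30a* (chromosome 1): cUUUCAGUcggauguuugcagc
miR-30e* (chromosome 4): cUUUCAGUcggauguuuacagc
let-7f* (chromosome 13): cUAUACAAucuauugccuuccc
miR-17* (chromosome 14): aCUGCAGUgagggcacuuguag
miR-20b* (chromosome X): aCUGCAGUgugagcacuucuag
miR-20a* (chromosome 14): aCUGCAUUacgagcacuuaaag

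Some arrays stood apart. Over all 655 probes, 386 to 461 were detected on the V0 arrays and 306 to 387 on the C1 arrays. Among the 15 members detected on all 20 arrays, V3 replicate 4 was the highest V3 array for 13, C1 replicate 4 the highest C1 array for 12 and V0 replicate 1 the highest V0 array for 12. Their 12 same-named probes went the other way: V3 replicate 4 was the lowest of its fraction for 11, C1 replicate 4 for 8 and V0 replicate 1 for 9. Results that rest on V3 replicate 4 or C1 replicate 4 are therefore also given without those 2 arrays, a choice made after the data were seen. Slide, the other technical label, was shared by few C1 arrays: C1 lay on slides 2, 3 and 4, with V0 also on slide 2 only.

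Epithelial miRNAs marked every fraction. Of 8 such markers, 8 were detected on all 4 V0 arrays and 5 on all 4 C1 arrays, and their summed log2 signal was 18.2 to 18.4 in V0 and 16.7 to 18.3 in C1. Markers of other cells were present too. The 5 muscle markers summed to 16.3 to 16.9 in V0 and 15.3 to 16.4 in C1, the 5 leukocyte markers to 15.8 to 16.7 and 13.8 to 16.1, and the 3 red cell markers to 13.7 to 14.6 and 11.2 to 12.9. Of the 3 red cell markers, 1 was detected on no V0 array and 1 on no C1 array. The 3 stroma markers summed to 15.2 to 16.2 in V0 and 15.0 to 16.4 in C1. The 3 secretory cell markers summed to 15.7 to 16.7 in V0 and 14.3 to 16.7 in C1. The 3 neuron markers summed to 11.1 to 13.5 in V0 and 10.8 to 11.2 in C1, and 2 of them were detected on no C1 array. The part of these cells in the results was not tested.

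Star strands were detected in every fraction, and the median number detected was lowest in the crypt. Of the 87 members, 49 to 60 (median 56) were detected on a V0 array, 51 to 63 (median 55.5) on a V1 array, 42 to 59 (median 52) on a V2 array, 43 to 63 (median 46.5) on a V3 array and 38 to 48 (median 43) on a C1 array. Every V0 array thus detected more members than any C1 array, but in the table before normalization the ranges overlapped, at 40 to 63 in V0 and 37 to 45 in C1. In percent this was 56.3 to 69.0% in V0 against 43.7 to 55.2% in C1, and for the probes without asterisk it was 59.9 to 71.8% against 46.9 to 60.9%. The members moved in the same direction as the rest of the array, but their median percent fell further from V0 to C1. After normalization the V0 and C1 ranges overlapped for the probes without asterisk and not for the members. Of the members, 40 (46.0%) were detected on more V0 than C1 arrays and 12 (13.8%) on fewer, beside 200 (37.1%) and 77 (14.3%) of the probes without asterisk. Whether members and other probes differed in this was not tested. Before normalization, the median signal of all probes was 622 to 1752 on the V0 arrays and 319 to 841 on the C1 arrays. The part of this array-wide signal in the detection counts was not tested. No member was detected on all 4 arrays of a villus fraction and no C1 array, nor the reverse.

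**Figure D1:**
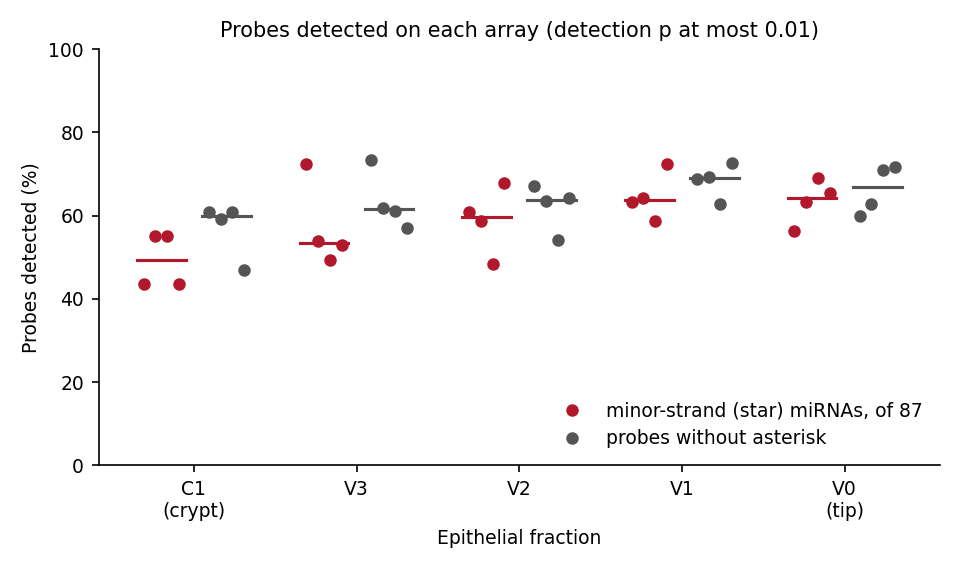
Percent of probes detected (detection p at most 0.01) on each of the 20 arrays, by fraction from crypt to villus tip, for the 87 star probes and the probes without asterisk; points are arrays and lines are medians of 4. For both kinds of probe the median was lowest in C1. The C1 range was 43.7 to 55.2% for star probes, and V2 replicate 3 and V3 replicates 2, 3 and 4 lay within it. For probes without asterisk it was 46.9 to 60.9%, and V0 replicate 1, V2 replicate 3 and V3 replicate 4 lay within it.

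A small group of star strands was present throughout. The 15 members detected on all 20 arrays (17.2% of members, beside 22.4% of probes without asterisk) were let-7b*, let-7g*, miR-7a*, miR-10a*, miR-20a*, miR-27a*, miR-29a*, miR-30a*, miR-30c-2*, miR-30e*, miR-181a-2*, miR-191*, miR-200c*, miR-411*:9.1 and miR-455*. Without V3 replicate 4 and C1 replicate 4, 21 members were detected on all 18 arrays left. Another 12 were detected on 18 or 19 of the 20 arrays and 54 on 1 to 17. The 6 detected on no array were let-7c-1*, miR-24-1*, miR-124*, miR-135a*, miR-463* and miR-676* (6.90%, beside 5.01% of probes without asterisk). miR-124 is the classic miRNA of neurons, and all 4 neuronal members (miR-9*, miR-124*, miR-135a* and miR-138*) were detected on 0 to 2 arrays. Their same-named probes did not share this: miR-9, miR-124, miR-135a and miR-138 were detected on 7, 3, 19 and 12 arrays. miR-9*, the star strand of another neuronal miRNA, was detected on 1 V0 and 1 V1 array, and its log2 signal was 8.94 to 10.4 in V0 and 8.83 to 9.16 in C1.

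Of the 76 pairs, the probe without asterisk was detected on more arrays in 50, the star probe in 16, and both on as many in 10, of which 7 at all 20. Over the 1520 combinations of a pair and an array, both strands were detected in 777, the probe without asterisk alone in 458, the star probe alone in 126 and neither in 159. For 27 members the same-named probe was on all 20 arrays. Among these, 7 star strands were on 0 to 4 arrays, namely miR-676* on 0, let-7i* and miR-374* on 2, and let-7f*, miR-20b*, miR-145* and miR-196a* on 4.

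A few hairpins showed the other order. miR-483* was detected on 17 arrays and miR-483 on 2. miR-34c*, from a hairpin whose guide is induced by p53, was detected on 12 arrays and miR-34c on 1, and miR-488* on 12 and miR-488 on 2. The signals were low: miR-483* ran from 9.23 to 11.1, and miR-34c* from 8.69 to 12.3, highest on V2 replicate 3. The same order held for miR-330* (13 against 5 arrays), miR-742* (9 against 3) and miR-30e* (20 against 15).

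**Figure D2:**
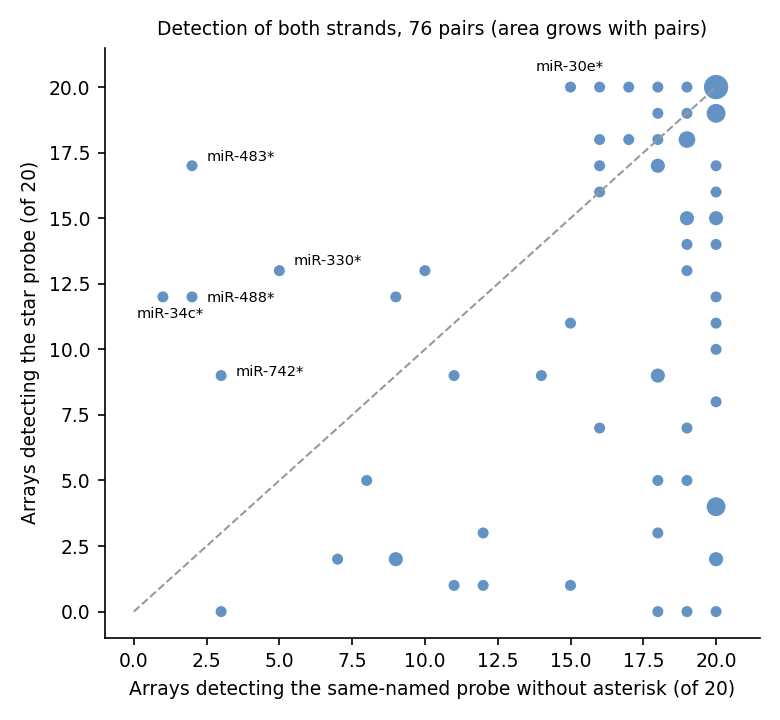
Number of arrays (of 20) on which each of 76 star probes was detected, against the number for the same-named probe without asterisk; the area of a point grows with the number of pairs at that place and the dashed line marks equal numbers. Most pairs lie below the line (50 of 76), and miR-483*, miR-34c* and miR-488* lie far above it.

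To ask whether star strands change along the axis, each villus fraction was compared with C1 by limma, for the probes detected on all 4 arrays of either fraction, with Benjamini-Hochberg adjustment over all of these. A call needed a difference of 2-fold or more with an adjusted p no higher than 0.05. A probe detected on all 4 arrays of only 1 of the fractions compared entered through that fraction alone. All 4 comparisons share the C1 arrays. No member was called in any. Between V0 and C1, 34 of the 87 members passed the filter and 0 were called, beside 0.623% of all 321 probes tested. An unadjusted p under 0.05 was reached by 6 members (17.6%, beside 16.8% of all probes), and by 1 in the exact rank-sum test. The groups of arrays did not overlap for 1 member, beside 7.79% of all probes. The median difference of the 34 was -0.38 (all probes -0.04), with 15 members higher and 19 lower in V0. That split hangs on the scaling: with no normalization the median of all probes was 0.95 and 30 members were higher and 4 lower.

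Between V1 and C1, 42 members were tested and 0 called by limma (0.578% of all probes), 9 had an unadjusted p under 0.05 (24.6% of all probes) and 11 in the exact rank-sum test. These 11 were the members whose V1 arrays all lay below all C1 arrays (22.3% of all probes did not overlap): let-7b*, let-7g*, miR-20a*, miR-29a*, miR-30c-2*, miR-125b*, miR-181a-2*, miR-218-2*, miR-411*:9.1, miR-455* and miR-881*. Without V3 replicate 4 and C1 replicate 4, 13 lay below and 1 above (33.3%, beside 26.6% of all probes). The median difference was -0.12 (all probes -0.01), with 18 higher and 24 lower, which became 35 and 7 with no normalization, where the median of all probes was 1.05, and 22 and 20 with each array centred on its median.

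Between V2 and C1, 38 members were tested and 0 called by limma (0.645% of all probes), 7 had an unadjusted p under 0.05 (20% of all probes) and 9 in the exact rank-sum test. The 9 lay below all C1 arrays (15.5% of all probes did not overlap): let-7b*, let-7g*, miR-20a*, miR-125b*, miR-181a-2*, miR-191*, miR-200c*, miR-411*:9.1 and miR-455*. The median was -0.31 (all probes -0.0003), with 17 higher and 21 lower, and 28 and 10 with no normalization, where the median of all probes was 0.93.

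Between V3 and C1, 30 members were tested and 0 called by limma (0.361% of all probes), 4 had an unadjusted p under 0.05 (9.39% of all probes) and 0 in the exact rank-sum test. None failed to overlap, beside 1.81% of all probes. Without V3 replicate 4 and C1 replicate 4, 11 of the 30 lay below all C1 arrays and 1 above, beside 33.6% of all probes. The median was -0.20 (all probes -0.09), with 11 higher and 19 lower, and 18 and 12 with no normalization, where the median of all probes was 0.18. Over all 5 fractions at once, 43 members were tested and 0 called by limma's F test (0.26% of all probes), with 2 at an unadjusted p under 0.05 (8.59% of all probes) and 1 in the permutation Kruskal-Wallis test. The smallest adjusted p of a member was 0.226, 0.148, 0.178 and 0.487 for V0, V1, V2 and V3, and 0.521 over all fractions.

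**Figure D3:**
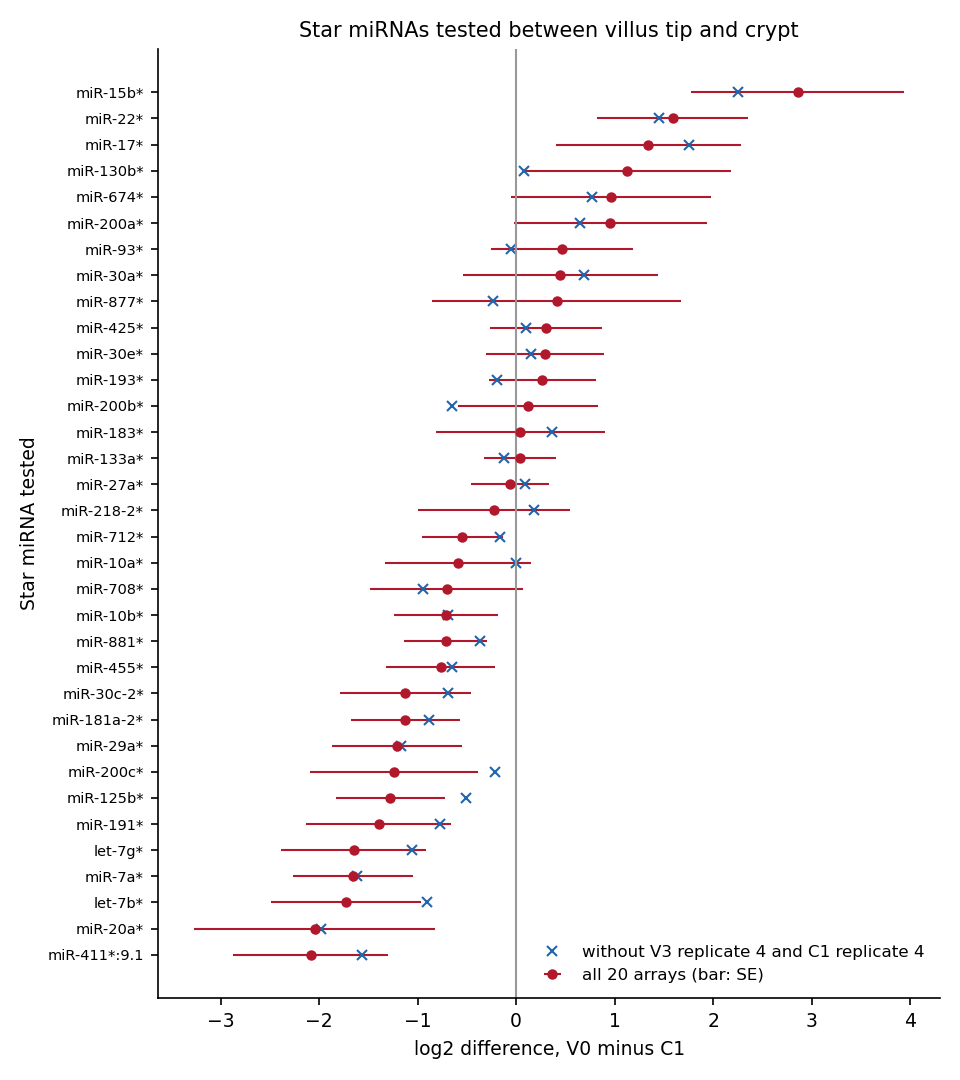
Difference of the log2 normalized signal, V0 minus C1, of the 34 star miRNAs tested, with 4 arrays per fraction; points and bars are the limma estimate and its SE from all 20 arrays, and crosses leave out V3 replicate 4 and C1 replicate 4. The estimates run from -2.09 for miR-411*:9.1 to 2.86 for miR-15b*, and none was called.

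Of the members of the let-7 family, whose guides accumulate as cells differentiate, let-7b* and let-7g* were on all 20 arrays. let-7b* had a log2 signal of 11.05, 9.98, 9.52 and 9.92 in V0, 9.88, 9.75, 10.07 and 9.85 in V1, and 10.01, 9.88, 10.02 and 9.73 in V2. It had 10.31, 11.18, 9.91 and 13.76 in V3 and 11.36, 11.13, 10.58 and 14.30 in C1. The high arrays were V3 replicate 4 and C1 replicate 4, and on these 2 let-7b was at 10.36 and 10.25, beside 15.42 to 15.90 on the other 18.

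The difference of let-7b* was -1.72 (SE 0.76, adjusted p = 0.268) for V0 and -1.96 (adjusted p = 0.165) for V1. All 4 V1 and all 4 V2 arrays lay below all C1 arrays, while V0 overlapped C1 only through replicate 1 (11.05). Without the 2 arrays the V0 difference was -0.91, with no normalization -0.09, with each array's number of detected probes in the fit (the detection covariate) -0.52, with slide as a block -1.29 and within slide 2, where C1 has 1 array, -0.86.

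let-7g* was at 12.15, 10.40, 9.68 and 9.97 in V0, 10.42, 9.97, 10.52 and 9.83 in V1, and 10.59, 10.24, 10.80 and 10.39 in V2. It was at 10.48, 10.06, 10.40 and 13.61 in V3 and 11.99, 11.91, 10.91 and 13.97 in C1. Its V1 and V2 arrays lay below all C1 arrays, and V0 overlapped C1 only through replicate 1 (12.15). The V0 difference was -1.65 (SE 0.74, adjusted p = 0.268), -1.06 without the 2 arrays and 0.04 with no normalization.

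let-7d* was bright on 17 arrays, at 13.2 to 15.2, and undetected on the other 3. These were V0 replicate 1 (9.04), V3 replicate 4 (8.95) and C1 replicate 4 (8.75), on which let-7d itself was at 15.71, 15.00 and 15.62. Its V1 arrays were at 14.71, 14.82, 15.06 and 15.21 and its other C1 arrays at 14.48, 14.80 and 14.63. The V1 difference was 1.79 (SE 1.40, adjusted p = 0.369) with all arrays and 0.32 without the 2 arrays. let-7f*, let-7i* and let-7c-1* were on 4, 2 and 0 arrays, and none of them was tested.

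1 probe stands for the star strands of 2 hairpins, let-7c-2* and let-7a*, and was either bright or undetected. It was at 8.86, 12.45, 13.15 and 12.93 in V0, 12.66, 12.69, 8.80 and 13.04 in V1, 11.82, 12.33, 8.87 and 11.96 in V2, 12.40, 8.84, 8.87 and 8.83 in V3, and 8.81, 8.88, 8.87 and 8.90 in C1. It was detected on 3 arrays each of V0, V1 and V2, on 1 of V3 and on 0 of C1. It passed the filter in no comparison with C1. It was called between V0 and C1 once V0 replicate 1 was left out, as were 13 of all 384 probes then tested. That array is the V0 array that did not detect it, so the probe entered that test only through the arrays where it was high, and the call is no support for a difference.

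In the miR-15/16 group, whose guides restrain the cell cycle, miR-15b* showed the highest difference from C1 of the members tested in V0, in V1 and in V2. It was detected on all 4 arrays of each of these fractions and on 2 C1 arrays, so it passed the filter only through the villus. It was at 13.12, 14.51, 13.36 and 13.80 in V0, 14.41, 14.26, 13.57 and 14.08 in V1, and 14.76, 14.56, 11.68 and 13.71 in V2. It was at 14.37, 13.66, 11.52 and 9.08 in V3 and 8.82, 13.57, 11.93 and 9.04 in C1. The C1 arrays spanned nearly the whole range, and C1 replicate 2 lay within the V0 range.

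The miR-15b* difference was 2.86 (SE 1.08, adjusted p = 0.226) for V0, 3.24 (SE 1.08, adjusted p = 0.148) for V1 and 2.84 (SE 1.08, adjusted p = 0.178) for V2. For V0 it was 2.26 without the 2 arrays, 3.35 with no normalization, 3.09 with slide as a block, 1.65 within slide 2 and 1.12 with the detection covariate. miR-15b was at 15.30 to 15.77 in V0 and at 15.68, 15.72, 15.55 and 8.83 in C1. On C1 replicate 4 both strands of this hairpin were near the floor, and on C1 replicate 1 the star strand alone was.

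The cluster of miR-17, miR-18a, miR-19a, miR-20a and miR-92a and its paralogs, which drive proliferation through their guides, had 8 members. Of these, 3 were tested between V0 and C1, with a median difference of 0.46, and miR-17* and miR-20a* stood on opposite sides. miR-17* was at 9.54, 11.40, 12.72 and 13.55 in V0, 11.35, 11.78, 13.68 and 13.80 in V1, and 12.12, 11.49, 9.57 and 14.08 in V2. It was at 12.17, 11.35, 13.91 and 12.91 in V3 and 10.21, 9.99, 9.94 and 11.70 in C1. 3 of the 4 C1 arrays lay below all V1 and V3 arrays, and C1 replicate 4 did not.

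The miR-17* difference was 1.34 (SE 0.94, adjusted p = 0.378) for V0, 2.19 (SE 0.94, adjusted p = 0.191) for V1 and 2.12 (SE 0.94, adjusted p = 0.487) for V3. For V0 it was 1.76 without the 2 arrays, 2.83 with no normalization, 1.95 with slide as a block, 3.19 within slide 2 and 0.74 with the detection covariate. miR-17 was at 9.33 on V3 replicate 4 and 9.0 on C1 replicate 4, and at 11.20 to 15.27 elsewhere.

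miR-20a* was at 15.74, 15.00, 9.70 and 13.97 in V0, 15.03, 13.19, 15.19 and 10.52 in V1, 14.56, 14.51, 14.08 and 10.40 in V2, and 12.99, 14.65, 15.03 and 15.83 in V3. In C1 it was at 15.80, 15.74, 15.21 and 15.85, close together and near the top of the scale. Single low arrays widened the villus fractions. The difference was -2.04 (SE 1.23, adjusted p = 0.319) for V0 and -2.26 (SE 1.22, adjusted p = 0.284) for V2. For V0 it was -1.98 without the 2 arrays, -1.73 with no normalization, -3.66 with slide as a block, -3.37 within slide 2 and -0.15 with the detection covariate.

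Of the other tested cluster members, miR-92a* and miR-93* were named by the rule given below, and miR-18a* was not. miR-93* was at 10.6 to 12.3 in V0 and 9.60 to 13.6 in C1, with a difference of 0.46 (SE 0.72), and -0.05 without the 2 arrays. miR-92a* was at 10.22, 10.92, 11.55 and 13.66 in V3 and 10.27, 9.85, 11.36 and 9.04 in C1, a difference of 1.46 (SE 0.66, adjusted p = 0.487). That value rested on V3 replicate 4 and C1 replicate 4, and was 0.40 without them.

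miR-7a*, the minor strand of a miRNA abundant in endocrine and neural cells, was the 1 of the 34 members tested whose V0 and C1 arrays did not overlap. It was at 15.27, 13.57, 12.57 and 14.91 in V0, 14.59, 14.02, 15.78 and 13.57 in V1, 14.95, 14.98, 15.74 and 14.23 in V2, and 14.34, 13.95, 15.50 and 15.77 in V3. The C1 arrays were at 15.66, 15.68, 15.74 and 15.87, all near the top of the scale. The V0 difference was -1.66 (SE 0.61, adjusted p = 0.226), with 7.79% of all probes likewise not overlapping. It was -1.61 without the 2 arrays, -1.44 with no normalization, -2.28 with slide as a block, -2.0 within slide 2 and -0.81 with the detection covariate. miR-7a was at 15.06, 15.40, 15.74 and 15.78 in V0 and 15.55, 15.36, 14.68 and 14.12 in C1, with overlapping arrays.

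miR-411*:9.1 was detected on all 20 arrays and had no same-named probe. The array annotates it to chromosome 0, so whether it belongs with the chromosome 12 probes left out was not settled. It was at 13.95, 11.65, 10.77 and 11.21 in V0, 11.80, 10.97, 11.86 and 11.45 in V1, and 11.89, 12.21, 12.85 and 10.57 in V2. It was at 11.45, 11.23, 12.10 and 14.63 in V3 and 13.78, 13.40, 13.21 and 15.55 in C1. All V1 and V2 arrays lay below all C1 arrays, and V0 replicate 1 and V3 replicate 4 lay within the C1 range.

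The miR-411*:9.1 difference was -2.09 (SE 0.79, adjusted p = 0.226) for V0, -2.47 (SE 0.79, adjusted p = 0.148) for V1, -2.10 (SE 0.79, adjusted p = 0.178) for V2 and -1.63 (SE 0.78, adjusted p = 0.487) for V3. For V0 it was -1.56 without the 2 arrays, -1.59 with no normalization, -2.59 with slide as a block, -2.22 within slide 2 and -0.63 with the detection covariate. For V3 it was -2.25 within slide 3 and 0.15 within slide 2.

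miR-22*, from a hairpin whose guide is widespread in differentiated tissues, was at 12.33, 10.55, 11.99 and 10.79 in V0, 10.92, 11.45, 11.63 and 11.32 in V1, and 9.05 to 12.17 in V2. It was at 10.98, 10.43, 8.90 and 9.60 in V3 and 8.87, 12.17, 8.86 and 9.39 in C1. It was detected on all 4 V0 arrays and on 1 C1 array, the replicate 2 that stood high. In the V0 comparison it thus passed the filter only through V0. The V0 difference was 1.59 (SE 0.77, adjusted p = 0.291), 1.45 without the 2 arrays, 2.39 with no normalization, 2.11 with slide as a block, 2.53 within slide 2 and 0.99 with the detection covariate. miR-22 was at 12.12, 13.97, 14.91 and 13.91 in V0 and 11.47, 10.94, 10.79 and 10.83 in C1, without overlap.

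**Figure D4:**
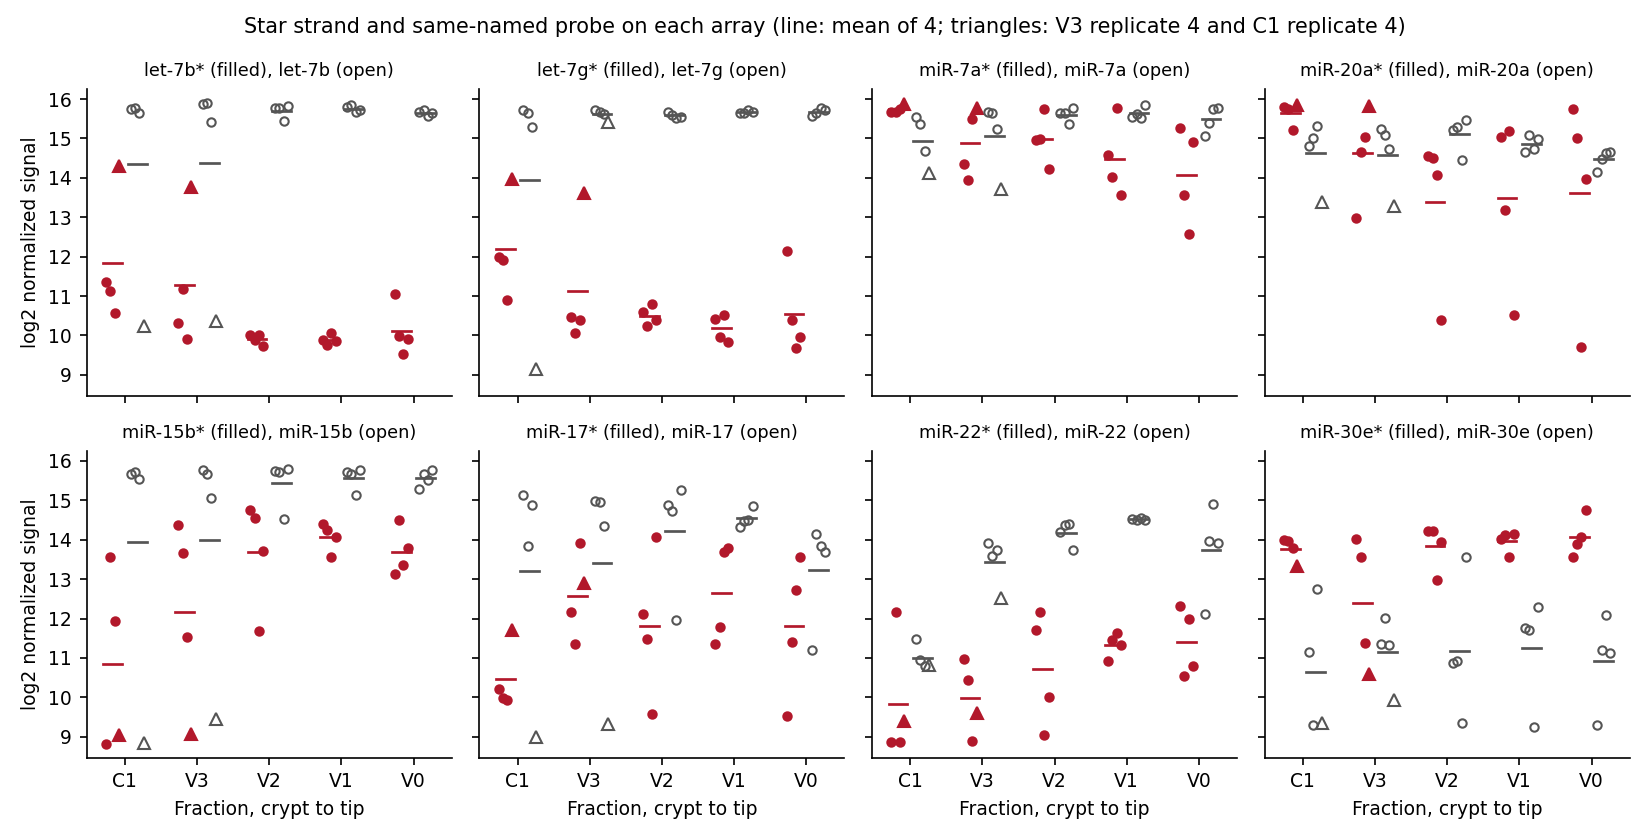
log2 normalized signal of 8 star miRNAs (filled) and the same-named probes (open) on each array, by fraction from crypt (C1) to villus tip (V0); lines are means of 4 arrays and triangles mark V3 replicate 4 and C1 replicate 4. For let-7b* the 2 triangles are its highest values (13.76 and 14.30) and for let-7b its lowest (10.36 and 10.25).

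miR-30e* was on all 20 arrays, and its near copy miR-30a* too, so the values of both may be mixed. miR-30e* was at 13.57, 13.88, 14.08 and 14.76 in V0, 14.02, 14.12, 13.55 and 14.15 in V1, 14.23, 14.23, 12.99 and 13.95 in V2 and 14.00, 13.97, 13.80 and 13.34 in C1. In V3 it was at 14.02, 13.57, 11.38 and 10.59, where replicates 3 and 4 were its lowest on any array. The V3 difference was -1.39 (SE 0.60, adjusted p = 0.487), -0.93 without the 2 arrays, -0.19 within slide 3 and -2.81 within slide 2. With the detection covariate it was -2.08 and was called, among 3 of all 277 probes. The 3 miR-30 members tested between V0 and C1 had differences of -1.12 to 0.45.

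The miR-200 family keeps cells epithelial by repressing ZEB factors through its guides. The 3 star strands of this family followed here were detected on 15 to 20 arrays, and their V0 differences ran from -1.24 to 0.96. miR-200c* was at 10.06, 9.40, 9.56 and 11.63 in V0 and 10.53, 10.51, 10.07 and 14.48 in C1. The highest of these, C1 replicate 4, set most of the difference of -1.24 (SE 0.85, adjusted p = 0.366), which was -0.21 without the 2 arrays and 0.21 with no normalization. miR-200c was at 15.55 to 15.80 in V0 and at 15.77, 15.78, 15.62 and 11.38 in C1.

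miR-125b* was at 10.22, 9.36, 9.15 and 9.37 in V0 and 10.28, 10.07, 9.74 and 13.10 in C1. Its signal was close to the floor, and it was detected on 12 of 20 arrays, 4 of them in C1. All V1 arrays (9.07 to 9.60) and V2 arrays (9.10 to 9.42) lay below all C1 arrays. V0 overlapped C1 only through replicate 1 (10.22). The V1 difference was -1.50 (SE 0.55, adjusted p = 0.159), -0.73 without the 2 arrays and 0.01 with no normalization. miR-191* was at 9.38 to 10.3 in V2 and 10.5 to 13.8 in C1, a difference of -1.86 (SE 0.74, adjusted p = 0.178), which was -1.23 without the 2 arrays and -0.13 with no normalization.

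The V0 and C1 arrays of the remaining group leaders overlapped, those of miR-29a* and miR-881* only through V0 replicate 1. All V1 arrays of miR-29a* and miR-881* lay below all C1 arrays. miR-29a*, whose guide represses collagen mRNAs, was at 10.1 to 11.8 in V0 and 11.1 to 13.3 in C1, a difference of -1.21 (SE 0.66, adjusted p = 0.296) that was 0.19 with no normalization. miR-10a*, from a hairpin inside a Hox cluster, was at 9.62 to 11.1 in V0 and 9.90 to 12.7 in C1, a difference of -0.59 (SE 0.74) that was 0.91 with no normalization. miR-27a* was at 9.29 to 10.8 in V0 and 9.94 to 10.7 in C1, a difference of -0.06 (SE 0.40) that was 1.11 with no normalization. The X-linked miR-881*, of a cluster known from the testis, was at 9.0 to 10.02 in V0 and 9.5 to 11.2 in C1, a difference of -0.72 (SE 0.42) that was 0.42 with no normalization.

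Several members showed higher villus values with wide spread. miR-130b* was at 14.26, 14.19, 14.37 and 14.02 in V1 and 14.39, 13.55, 11.75 and 9.07 in C1, a difference of 2.03 (SE 1.06, adjusted p = 0.217) that was 0.99 without the 2 arrays. miR-674* was at 13.88, 13.95, 12.06 and 13.55 in V1 and 11.49, 13.78, 9.29 and 10.74 in C1, a difference of 2.04 (SE 1.02, adjusted p = 0.214). With slide as a block these differences were 2.91 and 3.90, and both were called, among 9 of all 346 probes. That fit gives C1 replicate 4 no weight, since it is alone on its slide. Both members were detected on 4 V1 and 3 C1 arrays, so they passed the filter only through V1, where they were high. Their calls are thus no support for a difference.

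miR-140* was at 11.23, 13.31, 14.65 and 13.95 in V1 and 8.75, 14.44, 11.55 and 8.90 in C1, a difference of 2.38 (SE 1.43, adjusted p = 0.259) that was -0.39 with the detection covariate. It was detected on 4 V1 and 2 C1 arrays, so it passed the filter only through V1. miR-877* reached 15.59 on V3 replicate 4, and its V3 difference of 1.51 (SE 1.25, adjusted p = 0.625) was 0.09 without the 2 arrays and -0.59 within slide 3. miR-193* was at 11.66, 11.68, 10.89 and 13.52 in V3 and 10.97, 11.16, 11.66 and 9.44 in C1, a difference of 1.13 (SE 0.55, adjusted p = 0.487) that was 0.14 without the 2 arrays. miR-877* and miR-193*, detected on 2 and 3 C1 arrays, passed the filter only through V3.

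miR-145*, the minor strand of a smooth muscle miRNA, was detected on 3 V0 arrays, 1 V1 array and no other. It was at 9.11, 9.84, 11.09 and 11.80 in V0, 8.87, 9.22, 8.91 and 9.57 in V1 and 8.66 to 9.11 in C1. It was not tested with all arrays, and was called between V0 and C1 once V0 replicate 1 was left out, at a difference of 2.0 (SE 0.40). V0 replicate 1 is the V0 array that did not detect it, so here too the filter let it in only through the arrays where it was high, and the call is no support for a difference. miR-145 was detected on all 20 arrays. The muscle markers, a list that includes miR-145 and miR-133a themselves, had overlapping sums in V0 and C1 (16.3 to 16.9 and 15.3 to 16.4), and their part in these values was not tested.

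To ask whether the balance of the strands of a hairpin shifted, the log2 signal of the probe without asterisk was taken from that of the star probe on each array, and these differences were compared by limma. Of 76 pairs, 23 were tested between V0 and C1 among 29 pairs in all, and 0 were called (0% of the 29). An unadjusted p under 0.05 was reached by 5, all lower in V0, beside 20.7% of the 29. The median shift of the 23 was -1.36 and that of the 29 was -1.13, with 5 higher and 18 lower. Over all fractions 34 pairs were tested among 42, with 0 called (0% of the 42) and 0 at an unadjusted p under 0.05 (0%).

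The lowest shifts were those of let-7g* (-3.37, SE 1.42, adjusted p = 0.157), miR-10a* (-3.36, SE 1.47, adjusted p = 0.157), miR-29a* (-3.04, SE 1.49, adjusted p = 0.224) and let-7b* (-3.02, SE 1.75, adjusted p = 0.304). In C1 the SD of the shift of these pairs was 3.15 to 4.40. On C1 replicate 4 let-7b, let-7g, miR-10a and miR-29a were at 10.25, 9.14, 9.59 and 8.97, and miR-10a was also low on C1 replicate 1 (9.30). Without the 2 arrays they were -1.17, -2.0, -1.85 and -0.84. miR-7a* had a shift of -2.22 (SE 0.88, adjusted p = 0.157), and -1.91 without the 2 arrays. The pair of miR-133a*, a striated muscle hairpin, named after its values were seen, had the smallest p and was the 1 pair of a member whose V0 and C1 shifts did not overlap. Its shift was -2.48 (SE 0.81, adjusted p = 0.157). miR-133a* was at 10.84, 10.59, 9.66 and 9.77 in V0 and 10.45, 10.27, 10.29 and 9.68 in C1, and miR-133a at 12.93, 13.55, 13.31 and 12.33 in V0 and 10.11, 9.92, 11.97 and 10.02 in C1, so the star strand overlapped and the same-named probe did not.

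The highest shifts were those of miR-193* (2.03, SE 1.27), miR-17* (1.34, SE 1.49), miR-15b* (1.24, SE 1.04) and miR-93* (0.52, SE 0.82). Without the 2 arrays miR-17* had a shift of 3.16 and was called, the 1 pair of a member among 3 of 35 pairs called in that setting. For miR-22* the star strand and miR-22 both stood higher in V0, and the shift was -1.13 (SE 0.94, adjusted p = 0.378). The V0 differences of star and same-named probe had the same sign in 13 of the 23 pairs.

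Within fractions, the strands of a hairpin varied together only loosely. Over 34 pairs, the correlation of the 2 probes over 20 arrays, after each fraction's mean was taken off, had a median of 0.12 and ran from -0.92 (let-7b*) to 0.74 (miR-200b*), with 19 above 0. The arrays and their common normalization are shared by all of these values. The 1122 combinations of a star probe with the wrong partner had a median of -0.08. Without V3 replicate 4 and C1 replicate 4 the medians were 0.20 and 0.001, and 23 of 34 were above 0. The correlation of the let-7b* pair was then 0.37 and that of the miR-200b* pair 0.56.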

How the data were processed

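Total RNA of the 5 fractions was hybridised by the authors to Illumina miRNA bead arrays (20 arrays). The deposited tables hold the average bead signal intensity of 655 probes, before and after the authors' quantile normalization without background subtraction, and the deposited detection p-value of each probe on each array. The software's version, aligner and genome build are not given in the sources used here. The depth of an array has no counts behind it, and the number of arrays limits the precision.

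On the log2 scale of the normalized intensity, limma 3.58.1 (R 4.3.3) fitted a mean for each fraction to the 20 arrays together, with moderated errors. A probe entered a test if 1 of the fractions compared detected it on all its 4 arrays (detection p no higher than 0.01). The study's methods name the error model of the Genome Studio software, and its results a paired non-parametric comparison with false discovery adjustment. That error model could not be rebuilt from the deposited values. An unpaired form of the comparison, the exact rank-sum test (smallest p 0.0286 with 4 against 4 arrays), was an alternative.

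The members and lists were chosen with earlier results of these data known. Members named with values were those called, those with no overlap of V0 and C1 arrays, the 4 highest and 4 lowest differences in each comparison, up to 6 with the smallest F-test p, the most often detected member of each hairpin group of at least 3, and the 4 highest and 4 lowest strand shifts. miR-145*, the miR-133a* pair, the probe of let-7c-2* and let-7a*, and the pairs named for their detection were added after their values were seen. Older star names were matched to RefSeq arms by hand. Of the members, 23 were not matched and are named only. The alternatives changed the normalization, background, filter, slide, arrays and test, 1 at a time.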

Additional observations from a re-analysis of the deposited data

Results flagged for a closer look

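In 14 of 130 groups of 4 arrays of the named members, 1 array stood so far from the other 3 that its gap passed Dixon's 95% limit for groups of 4. Chance gives such a gap in about 5% of groups that are independent and not selected. These members were partly chosen for extreme differences and share their arrays, so that share is no fitting reference here. C1 replicate 4 was that array for let-7d* (log2 signal 8.75, the lowest of C1), miR-17* (11.7), miR-125b* (13.1) and miR-200c* (14.5), the last 3 the highest of C1. V3 replicate 4 was the highest V3 array for let-7g* (13.6) and miR-881* (10.6). V0 replicate 1 was the lowest V0 array for miR-140* (8.94), and V0 replicate 2 the highest for miR-9* (10.4). V2 replicate 3 was the highest V2 array for miR-10a* (11.9) and miR-92a* (11.6), and V2 replicate 4 the lowest for miR-20a* (10.4) and miR-191* (9.38). miR-191* also stood high on V1 replicate 3 (12.3), and miR-22* on C1 replicate 2 (12.2).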

How the results depend on the processing

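No paired analysis was possible because the labels tie no array to a mouse, and array numbers within a fraction only name them. With single arrays left out, members called ranged from 0 to 2 between V0 and C1 and from 0 to 1 over all fractions, and stayed at 0 in the other comparisons and for strand pairs. The 2 were miR-145* and the probe of let-7c-2* and let-7a*, without V0 replicate 1, where 13 of all 384 probes were called, and that setting also brought in miR-145* over all fractions (5 of 415 probes). V0 replicate 1 is the V0 array that detected neither, so both entered the test only by its removal. With slide as a block 2 members were called between V1 and C1 (miR-130b* and miR-674*, among 9 of 346 probes). Both had passed the filter only through V1, the fraction where they were high. With each array's number of detected probes in the fit, added after the data were seen, 1 was called between V3 and C1 (miR-30e*, among 3 of 277 probes). Without V3 replicate 4 and C1 replicate 4, also added then, 1 strand pair was called between V0 and C1 (miR-17*, among 3 of 35 pairs). The other 150 settings of these counts gave 0.

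Of the differences of named members, in the comparison for which each was named, 587 kept their direction and stayed uncalled, 2 passed the threshold and 5 turned. Within slide 2, the V3 difference of let-7g* was 1.09 and that of miR-411*:9.1 was 0.15. With that covariate, the V0 difference of miR-130b* was -0.23, and the V1 differences of miR-140* and miR-20a* were -0.39 and 0.066. Outside this count, the V3 difference of miR-877* was -0.59 within slide 3, looked at after the data were seen. Other differences printed above also turned with no normalization: those of let-7g*, miR-10a*, miR-27a*, miR-29a*, miR-200c* and miR-881* in V0 were then 0.04, 0.91, 1.11, 0.19, 0.21 and 0.42, and that of miR-125b* in V1 was 0.01. The cause was not tested. C1 replicate 4 is alone on its slide, slide 2 holds 1 C1 array, and many star probes lie close to the floor of 8.43 or the top of 15.9 on the log2 scale, where differences are bounded.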
